A study of Homo sapiens with 9 samples.

Results

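Immediate early genes are transcribed within minutes of a stimulus, without new protein synthesis, when kinases of the MAP kinase cascades activate transcription factors already bound at their promoters. Their transcripts and proteins are short-lived, so their levels follow recent events in a culture, such as fresh growth factor, mechanical handling or stress. The 10 genes described here encode subunits of the AP-1 transcription factor and a relative (FOS, FOSB, JUN, JUNB and ATF3), the zinc finger transcription factor EGR1, the transcription factor MYC, the nuclear protein IER2, the stress-inducible survival regulator IER3, and DUSP1, a phosphatase that switches MAP kinases off. They were chosen by gene name, matched 10 of the 60829 rows of the deposited table, and all 10 were among the 27777 rows that passed the filter on low counts.

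H1, a long-used human embryonic stem cell line, was grown on vitronectin in a stem cell medium. One clone carries a knockout of an element that the labels name HERVHlin on chromosome X, and the other is its control clone, labelled WT. There were 4 libraries of the control clone and 5 of the knockout clone, made at successive passages. The sample titles call them biological replicates, but by the series design these libraries count as technical replicates. The p-values hence reflect how much passages of a single clone vary, and a difference between the clones cannot be told apart from a difference between any 2 clones of the line. The sources used here do not state the time from feeding or passaging to harvest. Each library holds bulk RNA, in which fewer cells making a transcript and less transcript per cell cannot be told apart.

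Depth was 19838682 to 31192630 reads per library. Protein-coding rows took 26.3% to 50.8% of the reads, with the highest share in control 3 and the lowest in knockout 1. The deposited table marks 3 rows in a column headed KO, which is not explained there. Of these gene.human_00015544 held 1315.9 to 3935 normalized counts in the control libraries and 25.9 to 73.0 in the knockout libraries, gene.human_00001528 held 312 to 1036 and 68.0 to 169, and gene.human_00011326, whose clones overlapped, held 1711 to 3433 and 1149.5 to 1861. The treatment label calls the cells differentiated, but all 10 pluripotent cell markers on a list of POU5F1, SOX2, NANOG and others were expressed in every library, and 11 of 12 lineage markers were too low to be tested. The summed lineage markers held 22.6 to 41.9 normalized counts in the control libraries and 18.0 to 28.01 in the knockout libraries, and the summed pluripotent cell markers 37973 to 81318 and 33303 to 49644.

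Promoters of 8 of the 10 genes were found in a RefSeq table (GRCh38.p14) and searched over the 250 bases before the transcription start, on both strands. The CArG box, which binds serum response factor, occurred in EGR1 alone among the 8 matched genes, at -105 to -96 and at -83 to -74 from the start, against 1.16% of all 35116 promoters in the table. The cyclic AMP response element TGACGTCA occurred in DUSP1 alone among them, at -125 to -118 (1.65% of all promoters). The motif GCGNGGGCG, bound by EGR proteins, occurred in EGR1 alone among them, at -198 to -190 (8.41%), and the AP-1 motif TGANTCA in none of them (6.57%). The letters TATAAA occurred in 5 of the 8 (ATF3, DUSP1, FOS, FOSB and JUNB), and no matches overlapped. By promoter this was 5 of 9, against 10.7% of all promoters. The match of ATF3 lay at -230 to -225 of one of its promoters, and those of DUSP1, FOS, FOSB and JUNB lay between -33 and -25. The serum response element of FOS is known to lie further from its start than this window reaches. A match is a description of the sequence and not a measured binding site.

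The upstream sequences of FOS, FOSB, EGR1 and DUSP1 are shown because FOS and FOSB differed most between the clones on the log2 scale, EGR1 is their closest companion from library to library apart from each other, and DUSP1 is the brake on the kinases that induce them. Capitals mark the motifs above, and bases inside the gene as GENCODE 29 places it are left out, which in FOS removes the TATAAA at -33 to -28. Each reads 5′ to 3′ on the strand of the gene, FOS at chr14:75278578-75278773 (plus strand), FOSB at chr19:45467746-45467994 (plus), EGR1 at chr5:138465229-138465478 (plus) and DUSP1 at chr5:172771196-172771445 (minus).
FOS: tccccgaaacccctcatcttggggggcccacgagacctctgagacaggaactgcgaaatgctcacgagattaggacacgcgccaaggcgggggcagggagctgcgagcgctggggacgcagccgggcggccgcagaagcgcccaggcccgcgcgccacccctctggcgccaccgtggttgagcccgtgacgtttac
FOSB: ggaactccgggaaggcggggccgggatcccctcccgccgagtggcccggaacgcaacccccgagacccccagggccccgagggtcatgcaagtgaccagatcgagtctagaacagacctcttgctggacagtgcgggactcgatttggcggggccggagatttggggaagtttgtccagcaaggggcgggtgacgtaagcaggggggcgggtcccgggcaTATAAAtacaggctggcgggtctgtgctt
EGR1: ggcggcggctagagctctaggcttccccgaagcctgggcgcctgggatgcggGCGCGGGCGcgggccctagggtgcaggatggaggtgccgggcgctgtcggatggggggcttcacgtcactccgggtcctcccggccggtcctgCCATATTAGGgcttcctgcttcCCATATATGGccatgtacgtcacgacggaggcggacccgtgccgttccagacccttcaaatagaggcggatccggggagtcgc
DUSP1: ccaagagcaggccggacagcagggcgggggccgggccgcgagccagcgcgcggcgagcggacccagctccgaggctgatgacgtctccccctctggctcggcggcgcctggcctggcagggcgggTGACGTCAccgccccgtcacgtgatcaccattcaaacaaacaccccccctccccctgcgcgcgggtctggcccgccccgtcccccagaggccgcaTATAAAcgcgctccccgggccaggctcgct

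The genes shared compact gene bodies. By GENCODE 29, 9 of the 10 spanned under 10000 bases, from 1356 for IER3 to 7185 for FOSB, with ATF3 at 55444. Of all tested coding genes 18.9% were as short, and their median span was 33412 bases. In the 3′ untranslated region, the pentamer ATTTA, a mark of AU-rich elements that shorten the life of a transcript, was searched on the sense strand of the transcript with the longest such region. It occurred 5 times in the 809 bases of FOS, 6 times in the 906 bases of IER3 and 4 times in the 675 bases of DUSP1. MYC held 4 in 479 bases, FOSB 3 in 2170, EGR1 1 in 1237 and IER2 0 in 1053. The median over the 10 genes was 3.21 per kilobase, against 1.67 over 13808 tested coding genes, and 7 of the 10 lay above that median.

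None of the 10 genes passed the test between the clones. The limma fit over all rows called 0 of the 10 at an adjusted p under 0.05, where it called 0.54% of all tested rows, and 3 of the 10 (FOS, FOSB and DUSP1) had an unadjusted p under 0.05, as did 8.63% of all tested rows. EdgeR, DESeq2 and the authors' deposited table also called 0, each with 3 at an unadjusted p under 0.05. Of all 27777 tested rows edgeR called 151 and DESeq2 593, with 2195 and 2362 at an unadjusted p under 0.05. The shares over all rows of the authors' table were not computed. The libraries of the clones overlapped for all 10 genes, whereas 3.95% of all tested rows did not overlap. The median log2 fold change of the 10 was -0.38 against 0.01 over all tested rows, and 8 of the 10 were negative, against 49.0% of all tested rows. With the replicate block, which pairs same-numbered libraries, the median was -0.22 and 43 of all tested rows were called in place of 150, with 0 of the 10 among them. Without control 1, 6 of the 10 were negative, and with scaling on protein-coding reads, which moved the median of all tested rows to 0.21, 7 of the 10 were.

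FOS (chromosome 14, 75278774 to 75282230, plus strand, GRCh38), the AP-1 subunit that dimerizes with JUN proteins, held 650.3, 135, 467 and 934 normalized counts in control libraries 1 to 4. In knockout libraries 1 to 5 it held 110.2, 380.0, 107, 66.5 and 70.0. Control libraries 1, 3 and 4 lay above every knockout library, while control 2 fell between knockout 2 and the other 4. The means were 547 ± 335 (SD, n = 4) and 147 ± 132 (SD, n = 5), a log2 fold change of -1.92 (SE 0.64, 95% confidence interval -3.34 to -0.50, limma adjusted p = 0.36). Without control 2 the difference was -2.49, and without control 4 it was -1.56. The authors' deposited table gives -1.90 (SE 0.59, adjusted p = 0.057), and DESeq2 on the recovered reads gave an adjusted p of 0.072.

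FOSB (chromosome 19, 45467995 to 45475179, plus strand), a paralogue of FOS that is induced with it, was the least abundant of the 10 per kilobase. It held 96.7, 14.0, 37.4 and 159.9 normalized counts in control libraries 1 to 4, and 10.5, 39.5, 9.32, 5.98 and 3.69 in knockout libraries 1 to 5. These rest on 9 to 177 reads in the control libraries and 5 to 35 in the knockout libraries. Control 2 again lay among the knockout libraries, and knockout 2 lay above controls 2 and 3. The means were 77.0 ± 65.3 (SD, n = 4) and 13.8 ± 14.6 (SD, n = 5), with a log2 fold change of -2.32 (SE 0.79, 95% confidence interval -4.08 to -0.56, limma adjusted p = 0.38). On the log2(normalized count + 1) scale, changes of a gene with so few reads are understated. The authors' deposited table gives -2.50 (adjusted p = 0.056), and quantile normalization gave -3.02.

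JUN (chromosome 1, 58780788 to 58784327, minus strand), the partner of FOS in the classical AP-1 dimer, did not move with FOS between the clones. It held 214, 62.1, 97.5 and 51.5 normalized counts in control libraries 1 to 4, and 92.0, 199.6, 106, 76.2 and 56.0 in knockout libraries 1 to 5. Control 1 and knockout 2 stood above the other 7 libraries, which ranged from 51.5 to 106. The log2 fold change was 0.09 (SE 0.46, 95% confidence interval -0.94 to 1.13, limma adjusted p = 0.96), and it was negative without control 2 (-0.09), control 4 (-0.18) or knockout 2 (-0.17).

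JUNB (chromosome 19, 12791496 to 12793315, plus strand), an AP-1 subunit that can replace JUN and is a weaker activator, held 47.8, 59.0, 74.7 and 32.5 normalized counts in control libraries 1 to 4. In the knockout libraries it held 64.2, 54.1, 48.9, 17.2 and 20.6. Knockouts 4 and 5 lay below all other libraries, and the difference was -0.49 on the log2 scale, with an SE of 0.44 (limma adjusted p = 0.80), or -0.23 without knockout 4, -0.30 without knockout 5 and -0.31 without control 3. ATF3 (chromosome 1, 212565334 to 212620777, plus strand), a stress-induced relative that pairs with JUN proteins, held 489.8, 241, 238 and 126 normalized counts in the control libraries and 189, 466, 213, 170.4 and 147 in the knockout libraries. As for JUN, control 1 and knockout 2 stood apart above the rest, and the difference was -0.18 on the log2 scale, with an SE of 0.42 (limma adjusted p = 0.91). It turned to 0.16 without control 1 and to 0.03 with scaling on protein-coding reads, which moved the median of all tested rows to 0.21.

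EGR1 (chromosome 5, 138465490 to 138469315, plus strand), a zinc finger activator known to be induced through serum response factor, held 363, 40.4, 166 and 154 normalized counts in control libraries 1 to 4. The knockout libraries held 118, 295, 97.8, 74.7 and 48.6. Control 2 was the lowest of all 9 libraries and control 1 the highest, so that the control clone spanned the whole knockout range. The log2 fold change was -0.41 (SE 0.65, 95% confidence interval -1.86 to 1.04, limma adjusted p = 0.87), and it was 0.05 without control 1 and -0.9999 without control 2.

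DUSP1 (chromosome 5, 172768090 to 172771195, minus strand), which dephosphorylates MAP kinases and is itself induced by them, held 122, 62.1, 103.9 and 72.3 normalized counts in control libraries 1 to 4, and 43.1, 72.2, 67.5, 34.4 and 39.8 in knockout libraries 1 to 5. Controls 1, 3 and 4 lay above all 5 knockout libraries, control 4 by a margin of less than 1 normalized count. The log2 fold change was -0.81 (SE 0.30, 95% confidence interval -1.47 to -0.14, limma adjusted p = 0.45). IER3 (chromosome 6, 30743199 to 30744554, minus strand), which modulates cell survival under stress, had the opposite sign, with means of 527 ± 207 (SD, n = 4) and 813 ± 465 (SD, n = 5) normalized counts. It ranged from 293 to 774.6 in the control libraries and from 387 to 1441 in the knockout libraries, where knockouts 2 and 3 stood above every control library. On the log2 scale it differed by 0.52, with an SE of 0.44 (limma adjusted p = 0.79), or 0.26 without knockout 2 and 0.26 without control 4.

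IER2 varied least of the 10 genes within the clones, with MYC and DUSP1 next and nearly equal. IER2 (chromosome 19, 13150415 to 13154908, plus strand) held 731, 779.9, 1120.3 and 609 normalized counts in the control libraries and 683, 895, 698, 485 and 537 in the knockout libraries. Its difference on the log2 scale came to -0.29 with an SE of 0.23 (limma adjusted p = 0.78). The highest value was in control 3, the library with the largest protein-coding share, and without it the difference was -0.13, while without knockout 4 it was -0.19 and with scaling on protein-coding reads -0.09. MYC (chromosome 8, 127735434 to 127741434, plus strand), which drives growth and proliferation and helps to maintain stem cell self-renewal, held 949, 710.0, 997 and 596 normalized counts in the control libraries. In the knockout libraries it held 447, 675, 1047, 703 and 444. Knockout 3 was the highest of all 9 libraries, and knockouts 1 and 5 were below every control library. The difference on the log2 scale was -0.34 with an SE of 0.28 (limma adjusted p = 0.79). It was -0.52 without knockout 3, -0.22 without knockout 1, -0.21 without knockout 5 and -0.13 with scaling on protein-coding reads. For both IER2 and MYC, the value with that scaling stands beside a median of 0.21 over all tested rows.

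**Figure D1:**
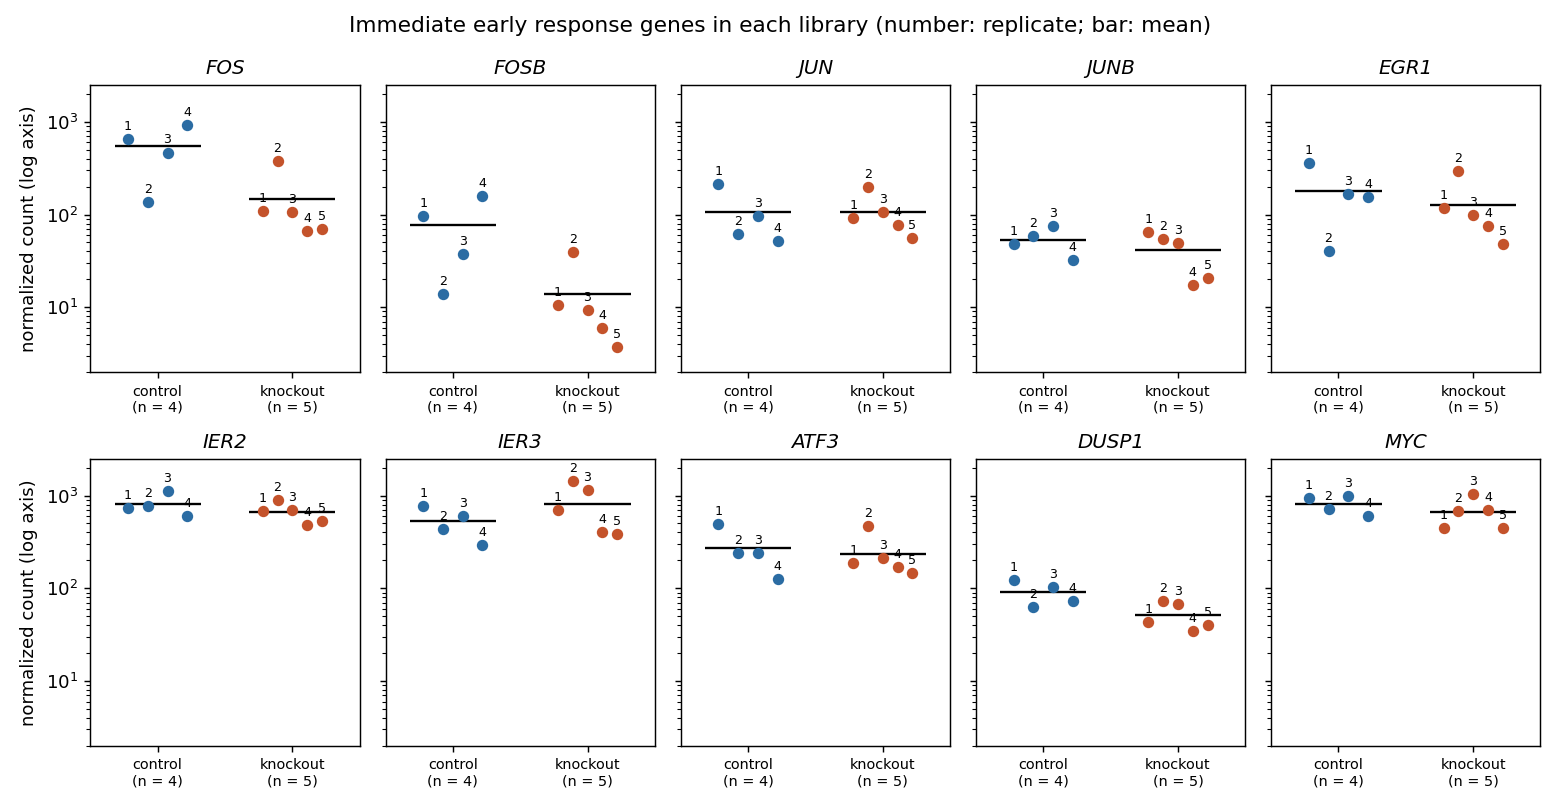
Normalized count (log axis) of each of the 10 genes in the 4 control and 5 knockout libraries. Points are libraries with their replicate number and bars are means. For FOS and FOSB, control 2 lies among the knockout libraries and knockout 2 among the control libraries, and the clones overlap in every panel.

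**Figure D2:**
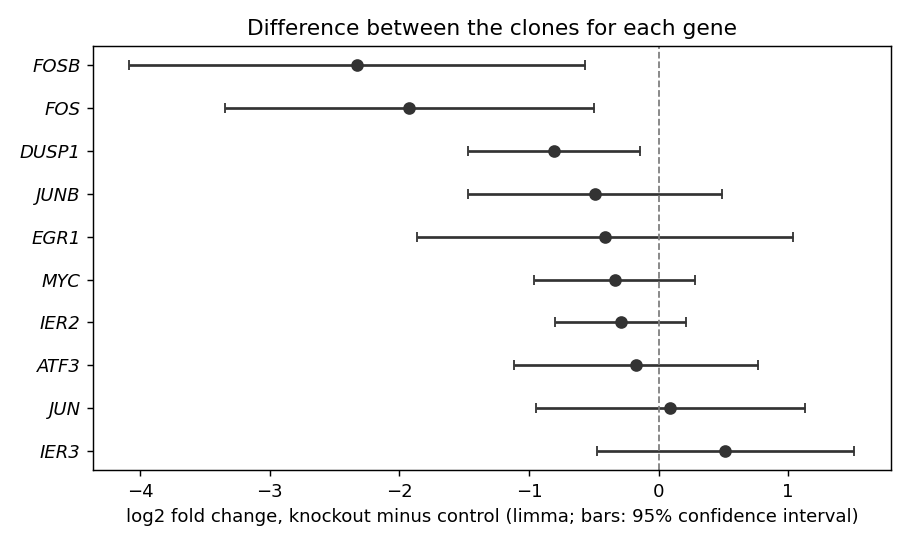
Log2 fold change of each gene, knockout minus control, from the limma fit on 9 libraries (x axis), with 95% confidence intervals as bars. The intervals of FOSB, FOS and DUSP1 lie below 0 before adjustment for the number of rows tested, and those of the other 7 genes cross 0.

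Levels were compared between genes per kilobase of exon. In the control clone the order of mean normalized counts per kilobase was IER3 (388 ± 153), MYC (271 ± 63.8), IER2 (264 ± 71.3), FOS (169 ± 103), ATF3 (67.8 ± 38.0), EGR1 (57.6 ± 42.8), DUSP1 (44.6 ± 13.8), JUN (29.996 ± 21.0), JUNB (29.4 ± 9.80) and FOSB (13.9 ± 11.8), each SD with n = 4. All neighbours in this order overlapped in their ranges over libraries. In the knockout clone FOS, at 45.3 ± 40.7 (SD, n = 5), came after ATF3, at 58.7 ± 32.2, with overlapping ranges. IER2 (215 ± 52.3) and ATF3 did not overlap there, nor did JUNB (22.5 ± 11.5) and FOSB (2.48 ± 2.63). IER3 was the first in both clones.

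The genes varied more from passage to passage than most coding genes did. The SD of log2(normalized count + 1) within the clones, pooled over both, was 1.33 for FOSB, 1.12 for EGR1, 1.10 for FOS and 0.78 for JUN. It was 0.76 for IER3, 0.72 for JUNB, 0.71 for ATF3, 0.46 for DUSP1, 0.45 for MYC and 0.36 for IER2. Over 11677 protein-coding rows averaging 50 or more normalized counts, the median was 0.33 and the 90th percentile 0.52. All 10 genes lay above that median and 7 above that percentile, with a median of 0.74 for the 10. Of these 7, FOSB and JUNB average 41.9 and 46.6 normalized counts and so are not among the coding rows compared. Counting error alone gives an SD of 0.41 for FOSB, 0.23 for JUNB and 0.12 for FOS on this scale, from their reads. With scaling on protein-coding reads the median of the 10 was 0.64 and that of the coding rows 0.28. IER2, at 0.20 with that scaling, lay below the median of the coding rows. No test was made of these spreads.

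**Figure D3:**
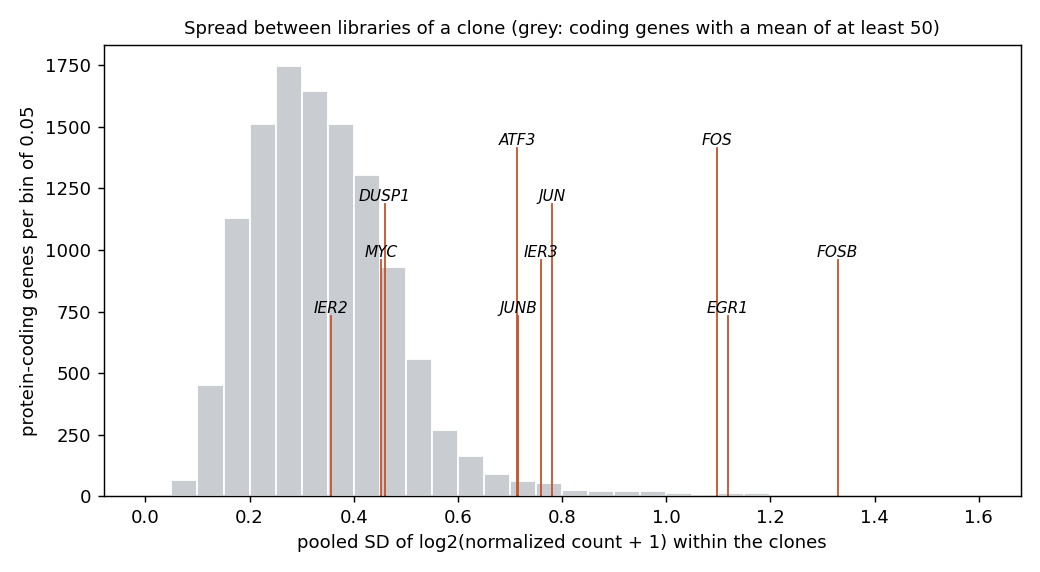
Pooled within-clone SD of log2(normalized count + 1) (x axis) over 11677 protein-coding rows averaging 50 or more (grey bars, number of genes per bin of 0.05). Vertical lines mark the 10 genes, of which FOSB, EGR1 and FOS have the largest SD and IER2, at 0.36, lies close to the median of the coding rows.

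The 10 genes deviated in one direction in knockout 2 and in knockout 5. Relative to the mean of its clone, knockout 2 was higher for 10 of 10 genes, with a median deviation of 1.03 on the log2 scale and up to 1.89 for FOSB. Knockout 5 was lower for all 10 (median -0.75), and knockout 4 for 9 (median -0.49). Control 1 was higher for 8 of 10, with a median of 0.60 and up to 1.38 for EGR1. Control 2 was lower for 9 of 10, with deviations of -1.87 for FOSB and -1.76 for EGR1, and IER2 and ATF3 were within 0.05 of their clone mean there. In control 4 FOSB and FOS deviated by 1.55 and 1.08 while ATF3 deviated by -0.94.

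Knockout 2 and control 1, the 2 libraries with the highest median deviation, had protein-coding shares of 32.3% and 37.2% and mitochondrial shares of 1.11% and 1.29%, inside the range of the other libraries. Knockout 5, with the lowest median, had a protein-coding share of 47.5% and the highest mitochondrial share, 3.15%, and the part of either in these deviations was not tested. With scaling on protein-coding reads the medians of knockout 2, control 1 and knockout 5 were 0.93, 0.67 and -0.66, and that of control 3 went from 0.25 to -0.26. The genes above the clone mean then went from 10 to 9 in knockout 2 and from 8 to 1 in control 3. With the authors' scaling, all tested rows averaging 50 or more had a median deviation of 0.26 in control 3. It was 0.06 in knockout 2, -0.02 in control 1, -0.03 in control 2, -0.17 in control 4, -0.11 in knockout 4 and -0.04 in knockout 5. The heat shock genes were a list of 12 that held chaperones, their cofactors and the transcription factor HSF1. These 12 deviated by a median of 0.15 in knockout 2 and -0.18 in control 1, and by 0.74 in control 3.

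**Figure D4:**
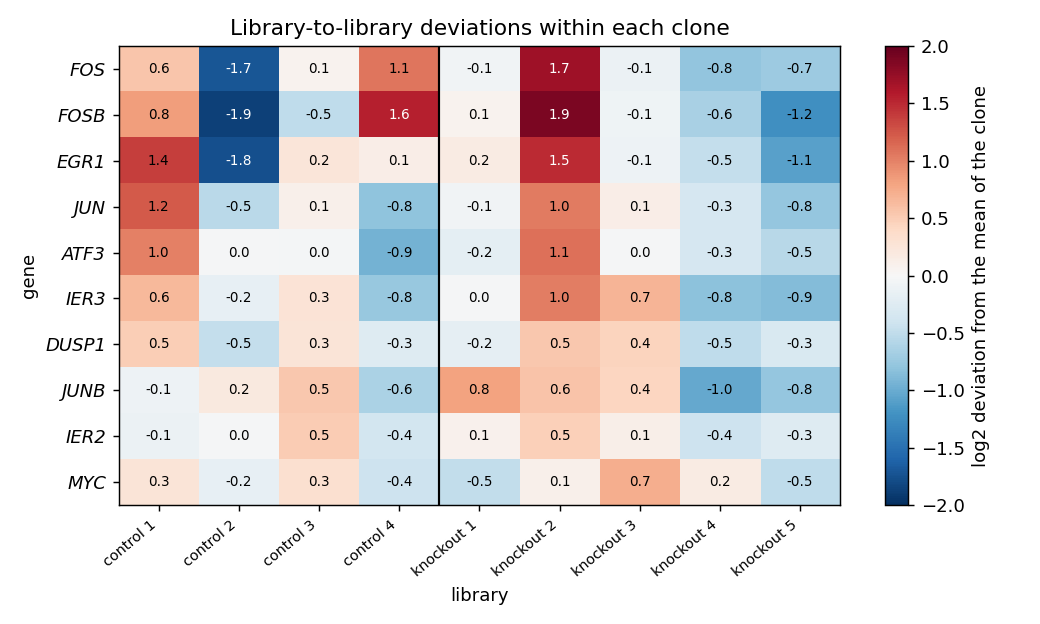
Log2 deviation of each gene (rows) in each library (columns) from the mean of its clone. Red is above and blue is below the clone mean, and the vertical line parts the control from the knockout libraries. Knockout 2 is above its clone mean for all 10 genes, and control 4 is above it for FOS and FOSB but below for JUN, ATF3 and IER3.

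Pairs of genes deviated together to different degrees. Over the 9 libraries the Pearson r of the deviations from the clone means was 0.97 for FOS and FOSB, 0.95 for JUN and ATF3, 0.90 for IER3 and DUSP1, 0.89 for FOS and EGR1 and 0.86 for JUNB and IER2. It was lowest for FOSB and MYC, at 0.07. Of 45 pairs 27 (60%) had an r above 0.5, against 37.1% of all pairs among 11677 coding rows, and the median r was 0.55 against 0.32. With scaling on protein-coding reads the median over the 45 pairs was 0.49, and pairs of coding rows were not computed under that scaling. There the r of IER2 and MYC went from 0.40 to -0.38, and that of JUNB and MYC from 0.26 to -0.24. The points share library, depth and RNA composition, and these values are descriptive.

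Within a library, the ratio between FOS and EGR1 separated the clones where neither gene did. FOS held 1.79, 3.35, 2.81 and 6.08 times the normalized counts of EGR1 in control libraries 1 to 4. In knockout libraries 1 to 5 it held 0.93, 1.29, 1.10, 0.89 and 1.44 times those counts. Such a ratio does not depend on how the libraries are scaled. The ratio of FOSB to EGR1 likewise ran from 0.225 to 1.04 in the control libraries and from 0.0758 to 0.134 in the knockout libraries. The ratio of FOS to JUN ran from 2.17 to 18.1 in the control libraries and from 0.873 to 1.90 in the knockout libraries, while that of FOS to FOSB overlapped, with medians of 8.20 and 11.1.

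Of all 45 pairs of the genes, 7 (15.6%) had ratios that did not overlap between the clones, against 5.81% of all pairs of tested protein-coding rows. These were FOS and FOSB each over JUN, EGR1 and IER3, and IER3 over DUSP1, which ran from 4.05 to 7.07 in the control libraries and from 9.72 to 19.97 in the knockout libraries. The pairs share genes and are not independent. The ratios were looked at after the values of the genes were seen, and no test was made of them.

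**Figure D5:**
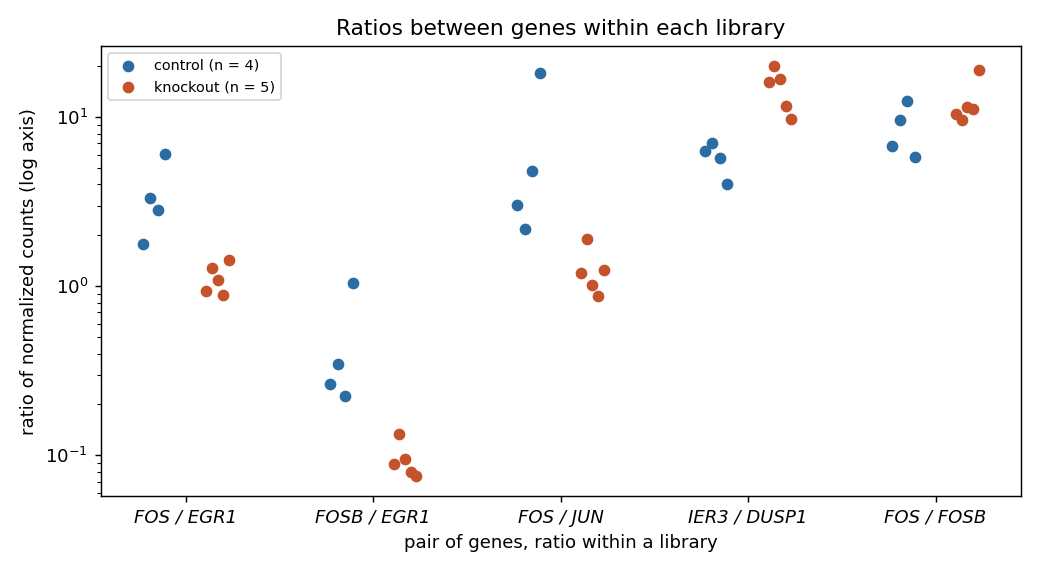
Ratio of normalized counts between 2 genes within each library (log axis) for 5 pairs (x axis), with control libraries in blue and knockout libraries in orange. The clones do not overlap for FOS over EGR1, FOSB over EGR1, FOS over JUN and IER3 over DUSP1, and they overlap for FOS over FOSB.

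The rest of the immediate early programme showed no call either. Of 37 further immediate early genes, 34 were tested and 0 were called by limma, edgeR or DESeq2. GADD45G, a stress-response gene named here after its values were seen, at -1.39, was lower at an unadjusted limma p of 0.011 (adjusted p = 0.34). The median log2 fold change of the 34 was -0.15, and 27 of 34 were negative, against 49.0% of all tested rows. That median ranged from -0.36, when control 4 was left out, to -0.02, when control 3 was. It was -0.28 without knockout 2 and -0.04 without knockout 5. With scaling on protein-coding reads it was 0.05, where the median of all tested rows was 0.21 in place of 0.01. CCN1, a secreted matrix protein induced by serum, measured 1307 ± 727 (SD, n = 4) and 664 ± 502 (SD, n = 5) normalized counts, with a log2 fold change of -1.12 and an SE of 0.51 (limma adjusted p = 0.59). CCN2, its relative, stood at -0.27, MCL1, an anti-apoptotic protein, at -0.03, and ZFP36L1, a protein that binds AU-rich elements, at -0.11. From library to library, 25 of the 34 had an r above 0.5 with the mean deviation of the 10 genes. Of 11669 coding rows averaging 50 or more, from which only the 10 genes were left out, 35.3% had such an r. The sets are not alike, since some of the 34, such as EGR2, average less than 50.

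Genes upstream of the programme and in its feedback were likewise not called. Of 21 tested kinases of the MAP kinase cascades 0 were called by limma, edgeR or DESeq2 and 0 had an unadjusted limma p under 0.05, with a median of -0.01. NRAS (0.03) and MAP2K2 (-0.19), from the cascade that leads to ERK, were among the most abundant, and the kinase gene RPS6KA1 had the largest difference (-0.35). Of 20 transcription factors that act on immediate early promoters 0 were called by the 3 tools (1 higher at an unadjusted limma p under 0.05), with a median of -0.03. CRTC3, a coactivator of CREB, measured 55.8 ± 10.8 (SD, n = 4) and 90.004 ± 12.8 (SD, n = 5) normalized counts with no overlap between the clones, a log2 fold change of 0.69 with an SE of 0.20 (limma adjusted p = 0.24). CREB1 stood at 0.19 and YAP1 at -0.11.

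DUSP6, the phosphatase that ERK signalling induces to restrain ERK, measured 1367 ± 459 (SD, n = 4) and 2268 ± 456 (SD, n = 5) normalized counts. Its log2 fold change of 0.76 (SE 0.25, limma adjusted p = 0.36) has the opposite sign to that of FOS and DUSP1. It was the 1 of 12 tested ERK feedback genes with an unadjusted limma p under 0.05, and 0 were called by limma, edgeR or DESeq2. Of all tested rows 8.63% had such a p, the share to set beside this count in every list. The median of the ERK feedback genes was 0.08, with SPRY4 at 0.13 and the ETS factor ETV4 at -0.09. Of 12 genes of messenger RNA decay 0 were called by the 3 tools (median -0.12), and 1, the exonuclease gene XRN1 (0.45), named after its values were seen, had an unadjusted limma p under 0.05. The most abundant and the most different were HNRNPD (-0.15), KHSRP (-0.12), CNOT1 (0.10) and ZFP36L2 (-0.68). Of 10 partners, antagonists and relatives of MYC 0 were called by the 3 tools or had an unadjusted limma p under 0.05 (median -0.03), with MAX, the obligate partner of MYC, at -0.29, MYCN at -0.36 and MGA at -0.00.

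Of 12 heat shock genes 0 were called by the 3 tools or had an unadjusted limma p under 0.05, with a median of -0.27 that came to -0.03 without control 3, -0.43 without control 4, -0.05 with quantile normalization and -0.07 with scaling on protein-coding reads. All 12 had a negative log2 fold change, among them HSPA8 (-0.32), HSP90AB1 (-0.32), HSPD1 (-0.29) and the inducible chaperone HSPA1B (-0.56). Of the pluripotent cell markers 0 of 10 were called by the 3 tools (1 lower at an unadjusted limma p under 0.05). Their median was -0.39 with 9 of 10 negative, including POU5F1 (-0.39), LIN28A (-0.38) and TDGF1 (-0.92). That median was -0.15 without control 3, -0.58 without control 4, -0.08 with quantile normalization and -0.18 with scaling on protein-coding reads. The median of all tested rows was 0.21 with scaling on protein-coding reads and 0.01 with quantile normalization. Of 8 fibroblast markers 4 were tested and 0 called by the 3 tools (1 lower at an unadjusted limma p under 0.05), with COL1A1 at -0.78, COL1A2 at -0.01 and THY1, which embryonic stem cells also express, at -0.23. The untested fibroblast markers LUM, FAP, COL3A1 and POSTN reached at most 1.82, 2.33, 8.15 and 10.03 normalized counts in any library, and DCN, the fourth tested, ranged from 6.99 to 24.9 (log2 fold change 0.12). The part of these markers in the values of the 10 genes was not tested.

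The rows most like the mean deviation of the 10 genes over the 9 libraries were TMEM30A (Pearson r = 0.99), ZBTB5 (0.97), TCL1B (0.97), CCNG1 (0.97), ATL3 (0.97) and GNB4 (0.96). They are the highest of 15969 rows with a symbol and a mean of at least 50, so their r describes how they were picked. CCNG1, a cyclin gene, measured 5266 ± 1421 (SD, n = 4) and 5293 ± 1308 (SD, n = 5) normalized counts, with no difference between the clones that passed (log2 fold change 0.01, limma adjusted p = 0.99).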

How the data were processed

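Total RNA after ribosomal RNA depletion was sequenced from 4 control and 5 knockout libraries with a stranded kit, per the labels' protocols. fastp, kallisto, DESeq2 and hg38 are named in the submitters' processing notes, without versions or roles; the sources used here give neither the annotation nor the use of strand. The deposited signal values are gene counts, scaled by the authors with a single size factor for each library, and are called normalized counts. Within a tolerance of 1e-06, 100% of them were whole multiples of the smallest value of their library, so reads were recovered. The authors' log2 fold changes, p-values and adjusted p-values come from the same deposited table.

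The 10 genes and all lists were chosen with earlier results of these data known. The main test, limma 3.58.1 in R 4.3.3 with its trend option, used log2(normalized count + 1), with the clone as the only term and all 9 libraries. Rows were kept by edgeR's filterByExpr (minimum count 10), and Benjamini-Hochberg adjustment ran over all 27777 rows with a threshold of 0.05. EdgeR 4.0.16 (quasi-likelihood) and DESeq2 1.42.0 on the recovered reads were alternatives, and others were pseudocounts of 0.5 and 5, no filter, quantile, TMM and protein-coding scaling, a replicate block and leaving out each library. The scripts were tested on simulated data. Named were the 10 genes, and of each list the called members, the 3 most abundant and the one with the largest change among means of at least 50, plus the 6 rows most like the mean of the 10. Some genes that this rule names are not reported here. Gene spans, exons and 3′ regions came from GENCODE 29 (GRCh38).

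A batch tag in the labels holds the replicate number, so same-numbered libraries are paired by label. The main test leaves the pairing out, and the replicate block brings it in as an alternative. Deviations of same-numbered libraries correlated at 0.07, 0.02, 0.25 and 0.33 for replicates 1 to 4 over all tested rows, and those of differently numbered libraries at -0.29 to 0.21, and knockout 5, which has no partner, adds nothing to the clone difference in the fit with the block.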

Additional observations from a re-analysis of the deposited data

Results flagged for a closer look

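FOS in knockout 2, at 380.0 normalized counts, stood apart from the other 4 knockout libraries, which held 66.5 to 110.2. On the log2 scale its gap to the nearest of them was 0.712 of the range of the clone. It was the 1 such gap among 20 groups, each 1 gene in 1 clone, and chance gives about 1 in 20. Without knockout 2 the log2 fold change of FOS was -2.35 (limma adjusted p = 0.19).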

How the results depend on the processing

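Under all 18 alternatives 0 of the 10 genes were called, with the smallest adjusted p at 0.068 (FOSB, DESeq2). The median of the 10 ran from -0.54 without knockout 2 to -0.17 with scaling on protein-coding reads (-0.22 without knockout 5), and FOS from -2.49 to -1.56. Scaling on protein-coding reads put the median of all tested rows at 0.21. With the replicate block FOS stood at -1.74 and FOSB at -2.02 (limma adjusted p = 0.50 for each), and it changed no call among the 10. The sign turned for JUN (-0.18 without control 4 to 0.50 without control 1), EGR1 (-0.9999 without control 2 to 0.046 without control 1) and ATF3 (-0.49 without control 4 to 0.16 without control 1, and 0.027 with protein-coding scaling), and for the other 7 it held in every fit. Over all rows 150 were called, against 593 with DESeq2, 43 with the replicate block and 79 (without knockout 4) to 186 (without control 4) with 1 library left out (93, 80 and 94 without controls 1, 2 and 3, 95 and 80 without knockouts 2 and 5), and the cause was not tested. The median within-clone SD of the 10 ran from 0.69 to 0.79 with 1 library left out. Counts as low as 5 reads limit FOSB, and intervals spanning over 2 log2 units limit FOS, FOSB, EGR1 and JUN.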
